A study of Rattus norvegicus with 12 samples.

Results

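The genes described here are the nuclear genes of the mitochondrial oxidative phosphorylation system, measured in terminal end buds of the rat mammary gland. They were chosen by name: every gene with a current symbol starting with Nduf, Sdha to Sdhd, Uqcr, Cox4 to Cox8 or Atp5, with Cyc1 and Cycs, wherever a probe could be named through its accession or symbol, with older symbols updated. Of 52 such genes on the array, 50 carried the authors' present or marginal flag on each array of 1 or more of the 6 groups. These 50 were tested among 11882 features, of which 5612 had a gene symbol. The other 2 were Cox8b, the heart and muscle isoform of cytochrome oxidase subunit 8, and Cox6c-ps1, a pseudogene of Cox6c. All 50 were detected in all 6 groups with the exception of Ndufaf4, which was not above background in oil at 49 days. Ndufs1, Uqcrfs1, Atp5f1b, Cox6a1, Cox6b1, Cox7a1, Cox7a2l, Cox8c, Ndufa4 and Ndufa4l2 had no named probe and were not analysed here.

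The animals were inbred female Sprague-Dawley rats. Within a day of birth the pups were injected under the skin with 1 or 100 µg of DES (diethylstilbestrol, a man-made estrogen) in sesame oil, or with the oil alone, and abdominal mammary glands were collected when the rats were 35 or 49 days old. Terminal end buds, the growing tips of the ducts, were cut from frozen sections by laser microdissection, and their RNA was amplified, labelled with Cy3 and hybridized to a 1-colour Agilent array. The groups were oil, DES 1 µg and DES 100 µg at 49 days and the same treatments at 35 days, with 2 animals and 2 arrays in each. All 7 epithelial markers with a named probe were detected, with mean log2 levels of 9.43 for Epcam, 9.19 for Krt19, 6.73 for Cldn3, 6.56 for Krt14, 6.54 for Krt7, 2.79 for Cdh1 and -1.38 for Krt5. Levels are log2 of the signal over the array's median signal, so 0 is the median probe of an array. With 2 arrays a group, their number limits the precision of every comparison.

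Oxidative phosphorylation is carried out in the inner mitochondrial membrane. Complex I takes electrons from NADH and complex II from succinate, complex III passes them to cytochrome c, and complex IV hands them to oxygen. The protons pumped on the way drive ATP synthase, complex V, through a rotating ring of c subunits. The nucleus encodes most of the subunits, and mitochondrial DNA the rest. Nuclear respiratory factor 1 (NRF1), the ETS factor GABPA and YY1 are known to bind promoters of many of these genes.

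The members' probes were bright. Their mean log2 level had a median of 6.44 and a range of -0.07 to 10.77, against a median of 2.41 over all features tested. The highest signals came from the probes of Atp5f1a, the alpha subunit of ATP synthase (10.77), of Atp5f1e, its epsilon subunit (9.37), and of Uqcrh, the hinge protein of complex III (9.36). The lowest came from Ndufaf4, an assembly factor of complex I (-0.07), and from a pair of tissue isoforms of cytochrome oxidase, the heart and skeletal muscle form Cox6a2 (0.30) and the testis form Cox6b2 (1.44). Signals of different probes give no order of abundance between genes. No probe of a member was saturated on the 10 arrays with scanner files, and none was marked there as a spot outlier.

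Promoter windows of RefSeq (GRCr8, from upstream of the annotated gene start to just past it) were at hand for 45 members. The NRF1 core, GCATGCGC, was present on either strand in 9 of these, or 20% of them, against 2.47% of all 33469 windows. The ETS motif, CCGGAAG, was present in 16, or 35.6%, against 8.75% of all windows, and the YY1 motif, AAGATGGC, in 7, or 15.6%, against 3.17%. At least 1 of these motifs was present in 22 of 45 members (48.9%) and in 13.3% of all windows. A match is a description of these letters and not of binding. The members with the NRF1 core were Atp5mc2, Atp5me, Atp5mg, Atp5po, Cycs, Ndufa6, Ndufaf4, Sdhb and Uqcrc1. Where the core and its reverse complement overlap, as in Atp5mc2, the joint run is in capitals.

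The windows below are given for 2 genes that were lower with both DES doses than in oil at 49 days (Cox8a and Atp5mc2), for the member called in comparisons at 35 days (Uqcrh), and for cytochrome c (Cycs), which passed in no comparison. On GRCr8 they lie at chr1:213833574-213833873, minus strand (Cox8a), chr7:135678169-135678468, minus strand (Atp5mc2), chr5:134790833-134791132, minus strand (Uqcrh) and chr4:80984718-80985017, minus strand (Cycs). Each runs 5′ to 3′ in the gene's direction, with matches to the motifs above, on either strand, in capitals.
Cox8a: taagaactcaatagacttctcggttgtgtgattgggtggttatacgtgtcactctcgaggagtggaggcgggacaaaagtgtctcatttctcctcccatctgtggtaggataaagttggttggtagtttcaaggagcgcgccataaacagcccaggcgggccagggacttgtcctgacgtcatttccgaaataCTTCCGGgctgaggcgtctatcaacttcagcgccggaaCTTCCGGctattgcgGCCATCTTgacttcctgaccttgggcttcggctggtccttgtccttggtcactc
Atp5mc2: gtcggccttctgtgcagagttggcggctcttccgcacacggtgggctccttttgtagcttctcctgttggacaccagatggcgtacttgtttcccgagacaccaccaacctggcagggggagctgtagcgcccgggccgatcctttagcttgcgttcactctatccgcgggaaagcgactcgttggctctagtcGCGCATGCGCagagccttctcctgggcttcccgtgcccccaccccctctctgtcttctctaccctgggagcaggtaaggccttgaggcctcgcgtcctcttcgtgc
Uqcrh: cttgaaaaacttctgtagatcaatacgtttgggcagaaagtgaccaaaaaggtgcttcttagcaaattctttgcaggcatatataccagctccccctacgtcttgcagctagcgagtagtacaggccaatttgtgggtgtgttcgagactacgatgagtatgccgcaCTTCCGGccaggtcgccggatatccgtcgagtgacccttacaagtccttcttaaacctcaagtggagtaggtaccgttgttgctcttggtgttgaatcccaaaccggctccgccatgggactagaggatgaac
Cycs: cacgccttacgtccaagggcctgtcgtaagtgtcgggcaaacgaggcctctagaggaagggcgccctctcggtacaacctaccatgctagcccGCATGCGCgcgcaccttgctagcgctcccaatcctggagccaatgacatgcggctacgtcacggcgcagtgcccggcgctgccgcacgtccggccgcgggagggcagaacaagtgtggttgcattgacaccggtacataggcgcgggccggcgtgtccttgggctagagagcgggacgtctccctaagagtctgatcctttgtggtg

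The oil arrays at 49 days stood apart from all others, and this bears on every comparison that uses them. Their median signal was 16.4 and 15.3, where the other 10 arrays had 23.6 to 38.95. The authors' flags put 47.2% of probes as detected on both of them, and 57.5% to 61.7% in the other groups. The lowest detected signal was 1.04 and 1.03 times the array median on the oil arrays at 49 days, and 0.21 to 0.37 times on the other arrays. The median probe that sets the scale was thus below the detected range on the oil arrays at 49 days only. Bright features as a class read higher on these 2 arrays. To show this beside the members, 1395 features outside the list were taken whose mean level lies between the 25th and 75th percentile of the members (5.39 to 7.79). On the oil arrays at 49 days the median deviation of the members from their own mean over 12 arrays was 0.40 and 0.41, and that of the 1395 equally bright features was 0.28 and 0.23. On the other 10 arrays these medians lay between -0.23 and 0.01 for the members and between -0.13 and 0.12 for the equally bright features. No scan day was at hand for the oil arrays at 49 days, so scan day and group cannot be told apart there.

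**Figure D1:**
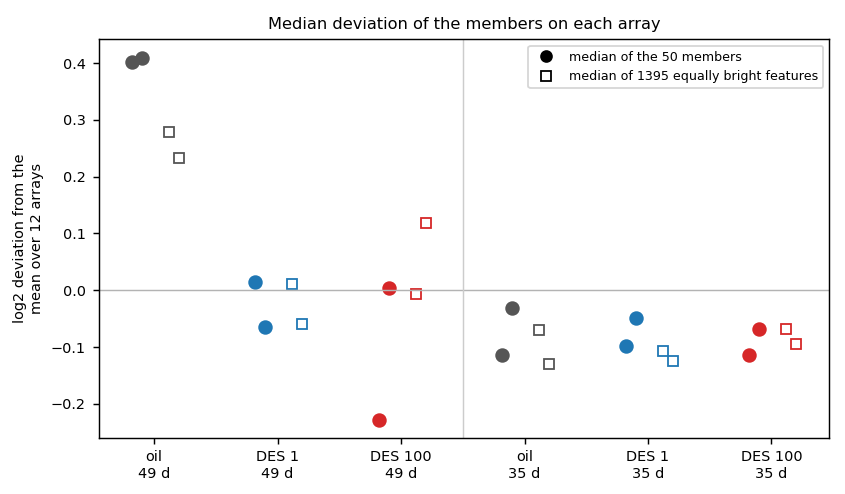
Median log2 deviation from each feature's mean over the 12 arrays, on the vertical axis, for the 50 members (filled circles) and 1395 equally bright features (open squares), by group on the horizontal axis with 1 pair of symbols per array. Both oil arrays at 49 days lie above all others, at 0.40 and 0.41 for the members and 0.28 and 0.23 for the equally bright features.

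At 49 days, many genes of the respiratory chain were lower after neonatal DES than in oil. With DES 1 µg, 15 of 50 members (30%) fell and 2 (4%) rose, while 19% of all features fell and 12.7% rose. With DES 100 µg, 23 (46%) fell and 1 (2%) rose, while 14.2% of all features fell and 11% rose. The median log2 difference of the members was -0.40 with DES 1 µg and -0.58 with DES 100 µg, against -0.09 and -0.07 over all features. Among the 1395 equally bright features, 34.9% fell and 4.87% rose with DES 1 µg, with a median of -0.28, and 19.7% fell and 3.01% rose with DES 100 µg, with a median of -0.20. The members' share of falls was thus below that of equally bright features with DES 1 µg and above it with DES 100 µg, a difference that was not tested. Both DES comparisons use the same oil arrays, so they are not independent. In bulk samples of this kind, fewer cells of a type and less RNA per cell cannot be told apart.

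The 2 DES arrays were each lower than either oil array for 44 of the 50 members with DES 1 µg and for 40 with DES 100 µg. Over all features this held for 43.6% and 39%. The 2 DES arrays were each higher than either oil array for 2 members with DES 1 µg and 6 with DES 100 µg, against 31.2% and 29.7% of all features. These shares were not computed for the equally bright features, which also read higher in oil. Of those 1395, 1034 had a negative difference with DES 1 µg and 1019 with DES 100 µg, against 44 and 42 of the 50 members.

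Most of the lower genes belonged to ATP synthase and cytochrome oxidase, which also hold 14 and 10 of the 50 members. Among the equally bright features 34.9% fell with DES 1 µg and 19.7% with DES 100 µg. Whether the complexes differ from each other was not tested. Of 14 tested subunits of ATP synthase, 6 fell with DES 1 µg and 8 with DES 100 µg, none rose, and the median log2 difference was -0.58 and -0.70. Atp5mc1 is 1 of 3 genes whose products differ in the targeting peptide but give the same c subunit of the ring. It read 7.58 and 7.55 on the DES 1 µg arrays and 9.09 and 8.97 on the oil arrays, a log2 difference of -1.46 ± 0.21 (SE, adjusted p = 0.00274, limma). On the DES 100 µg arrays it read 7.68 and 8.05, a difference of -1.17 ± 0.21 from the same oil arrays (adjusted p = 0.00763, limma). None of the 4 DES arrays reached the lower oil array, and the DES levels overlapped those of the 35-day groups, which ran from 7.37 to 8.04.

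Beside it stand the other genes of the c ring. Atp5mc2 differed by -0.61 ± 0.17 with DES 1 µg (adjusted p = 0.0289, limma) and by -0.93 ± 0.17 with DES 100 µg (adjusted p = 0.00775, limma). Atp5mc3 had differences of -0.30 and -0.10 that did not pass. Whether the 3 genes differ from each other in response was not tested. Atp5f1a, the alpha subunit, read 10.23 and 10.53 with DES 1 µg, against 11.48 and 11.37 in oil, and fell by 1.05 on the log2 scale (SE 0.21, adjusted p = 0.00897, limma). At DES 100 µg its difference of -0.63 did not pass (adjusted p = 0.061, limma). Atp5f1c, the gamma subunit, and Atp5po, a subunit of the stalk, fell with both doses, by 0.77 and 0.61 with DES 1 µg and by 0.73 and 0.72 with DES 100 µg. Atp5if1, which inhibits ATP hydrolysis by the enzyme, fell with DES 100 µg by 0.71 (SE 0.15, adjusted p = 0.0117, limma) and had a difference of -0.28 with DES 1 µg that did not pass.

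In cytochrome oxidase, complex IV, every call was a fall. Of 10 tested subunits, 4 fell with DES 1 µg and 8 with DES 100 µg, none rose, and the medians were -0.57 and -0.70. Cox8a, the subunit 8 isoform found in most tissues, read 7.73 and 7.70 with DES 1 µg and 8.99 and 8.79 in oil, a difference of -1.18 ± 0.26 (adjusted p = 0.0131, limma). With DES 100 µg it read 7.22 and 7.92, a difference of -1.32 ± 0.26 (adjusted p = 0.0106, limma). The 2 arrays of DES 100 µg were far apart for this gene, but neither overlapped the oil arrays. Cox5a fell by 1.17 with DES 1 µg (SE 0.19, adjusted p = 0.004, limma) and by 0.69 with DES 100 µg (SE 0.19, adjusted p = 0.032, limma). Cox5b, named beside it because it passed with both doses, fell by 0.74 and 0.91.

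Cox7a2, the widely expressed isoform of subunit 7a, read 5.65 and 5.86 on the DES 100 µg arrays, against 6.90 and 6.96 on the oil arrays. Its difference of -1.18 ± 0.19 passed (adjusted p = 0.00549, limma), as did the smaller one of -0.71 ± 0.19 with DES 1 µg (adjusted p = 0.0262, limma). Cox4i1, the common isoform of subunit 4, did not pass with either dose (-0.40 and 0.08), while the lung-enriched isoform Cox4i2 fell with DES 100 µg by 0.72 (SE 0.21, adjusted p = 0.0382, limma). Cox6c had differences of 0.10 and -0.25 that did not pass, and the testis isoform Cox6b2 fell with DES 100 µg by 0.60.

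The muscle isoform Cox6a2 needs its own values because muscle fibres can lie beside mammary tissue. It read 0.21 and -0.26 with DES 100 µg and 1.09 and 1.37 in oil, a difference of -1.25 ± 0.35 (adjusted p = 0.0335, limma), and -0.99 ± 0.35 with DES 1 µg, which did not pass. Of 15 skeletal muscle markers listed, 7 had a named probe and 4 were detected, while Ckm, Tnnc2 and Pvalb were not. Of these 4, 2 were lower with each DES dose than in oil at 49 days: Mb, the oxygen store of muscle, by 0.95 and 0.75, and Atp2a1, the calcium pump of fast muscle, by 1.20 and 1.12. Atp2a1 had a mean log2 level of -0.47 in oil at 49 days, below the array median. The lowest signal detected on those 2 arrays was 1.04 and 1.03 times the median, so the Atp2a1 differences rest on undetected signal. The summed linear level of the 4 at 49 days was 67.8 to 69.7 in oil, 66.6 to 74.3 with DES 1 µg and 66.8 to 76.6 with DES 100 µg, most of it from Actn3. Their part in the Cox6a2 difference was not tested. Cox8b, the muscle form of subunit 8, was not detected in any group.

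**Figure D2:**
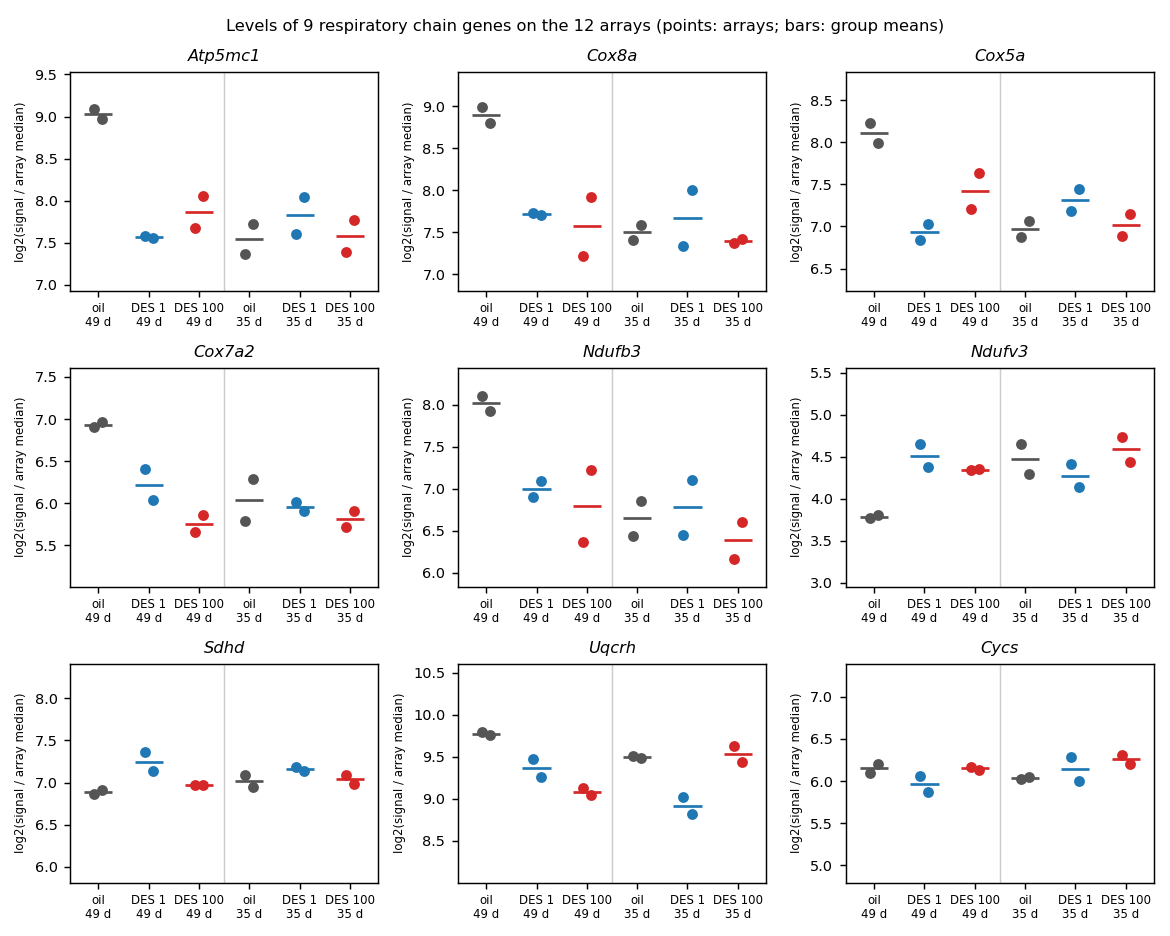
Levels of 9 members on the 12 arrays, as log2 of signal over the array median (vertical axes), by treatment with 49 days to the left of the line and 35 days to the right. Points are arrays and bars are group means. Atp5mc1, Cox8a, Cox5a, Cox7a2 and Ndufb3 are highest on the oil arrays at 49 days, Ndufv3 is lowest there, and Cycs stays between 5.88 and 6.31.

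Complex I was mixed. Of 14 subunits, 2 fell and 1 rose with DES 1 µg, and 4 fell and 1 rose with DES 100 µg. Ndufb3, an accessory subunit of the membrane arm, read 6.37 and 7.22 with DES 100 µg, against 8.11 and 7.93 in oil, a difference of -1.22 ± 0.32 (adjusted p = 0.0279, limma). Ndufb9, of the same arm, fell with DES 1 µg by 1.07 (SE 0.28, adjusted p = 0.0217, limma). The brighter of 2 Ndufb9 probes gave that value, and the other gave -0.47. Ndufv3, an accessory subunit of the NADH-oxidizing module, went the other way. It read 4.65 and 4.38 with DES 1 µg and 3.77 and 3.81 in oil, and rose by 0.72 (SE 0.17, adjusted p = 0.0171, limma). With DES 100 µg it read 4.34 and 4.35 and rose by 0.56 (SE 0.17, adjusted p = 0.0484, limma). The core subunits of that module had small differences: Ndufv1, which binds NADH, had differences of -0.25 and -0.24, and Ndufv2 of 0.10 and 0.07, and none of these passed.

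Complexes II and III and cytochrome c had fewer members tested, and so fewer calls by number. With DES 1 µg, 1 of 4 fell and 1 rose in complex II, and 2 of 5 fell in complex III. Among the 4 subunits of succinate dehydrogenase, Sdhd, a membrane anchor, rose with DES 1 µg by 0.36 (SE 0.11, adjusted p = 0.0438, limma), while Sdha, the catalytic flavoprotein, fell by 0.40 (SE 0.11, adjusted p = 0.0301, limma). None of the 4 passed with DES 100 µg. Of 5 complex III genes, Cyc1, which encodes cytochrome c1, and Uqcrh fell with DES 1 µg, by 0.96 and 0.40. Uqcrc1, a core protein, and Uqcrh fell with DES 100 µg, by 0.45 and 0.69. Cycs, the mobile carrier itself, read 6.09 and 6.21 in oil, 6.06 and 5.88 with DES 1 µg and 6.17 and 6.14 with DES 100 µg, with differences of -0.18 and 0.00 that did not pass.

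The number of calls at 49 days depended on single arrays. With DES 1 µg the count of members called was 5 without oil array 1, 7 without oil array 2, 7 without DES array 1 and 7 without DES array 2, in place of 17. For DES 100 µg it was 8 without oil array 1, 9 without oil array 2, 6 without DES array 1 and 21 without DES array 2, in place of 24. Of the largest falls named above, Atp5mc1 and Cox5a with DES 1 µg and Cox7a2 with DES 100 µg passed in each of their 4 such fits and in all 16 alternatives run. The other calls among the largest rises and falls were less stable: Cox8a was kept in 1 of the 4 fits with DES 1 µg and in 2 with DES 100 µg, Ndufb3 in 1 with DES 100 µg, and Ndufv3 in 1 with DES 1 µg and in 0 with DES 100 µg. Sdhd and Ndufb9 with DES 1 µg and Cox6a2 with DES 100 µg were kept in 0 of 4. When each array was centred on the equally bright features, a setting added after the data were seen, 8 members fell and 3 rose with DES 1 µg, and 13 fell and 1 rose with DES 100 µg. The medians were then -0.13 and -0.38. Quantile normalization gave 9 falls and 4 rises with DES 1 µg.

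In oil, part of the respiratory chain genes were higher at 49 than at 35 days. Of 50 members, 22 rose (44%), 1 fell and 27 did not pass, against 27.7% of all features higher and 14% lower. The equally bright features gave 45.5% higher and 2.65% lower, so the members' share of rises was close to that of features with the same signal. The members' median was 0.40, that of the equally bright features 0.37 and that of all features 0.16. These values rest on the same oil arrays at 49 days as the DES comparisons above. Complex IV had 6 of 10 and complex V 8 of 14 members higher, and none of the 5 genes of complex III passed.

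Atp5mc1 read 9.09 and 8.97 at 49 days, against 7.37 and 7.73 at 35 days, and rose by 1.48 (SE 0.21, adjusted p = 0.00204, limma). Cox6a2 rose by 1.40, Cox8a by 1.39 and Ndufb3 by 1.37. Without each of the 4 arrays in turn, Atp5mc1 and Cox8a passed in 4 of 4 fits, Cox6a2 and Ndufb3 in 2 and Ndufv3 in 1. Beside Cox6a2, 3 of the 4 muscle markers tested rose, with Mb higher by 1.14, Atp2a1 by 0.99 and Actn3 by 0.66. Atp2a1 was below the detected range in oil at 49 days. Ndufv3 read 3.77 and 3.81 at 49 days, against 4.66 and 4.30 at 35 days, and fell by 0.69 (SE 0.17, adjusted p = 0.0149, limma). The core genes were mixed. Sdha, Cox5a and Atp5f1a passed as higher, with group means going from 6.49 to 6.92, 6.97 to 8.11 and 10.56 to 11.43. Cycs, Cox4i1 and Ndufv1 had differences of 0.11, -0.01 and 0.13 and did not pass, nor did Uqcrc1 and Cyc1. Scaling mattered here. Division by the 75th percentile gave 16 rises and 3 falls, quantile normalization 9 and 5, and centring on the equally bright features 10 and 5, with medians of 0.25, 0.14 and 0.06. The median over all features was 0.01, -0.01 and -0.18 in these settings. The count of 23 calls was 9 without oil array 1 at 35 days, 11 without oil array 1 at 49 days and 13 without oil array 2 at 49 days.

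**Figure D3:**
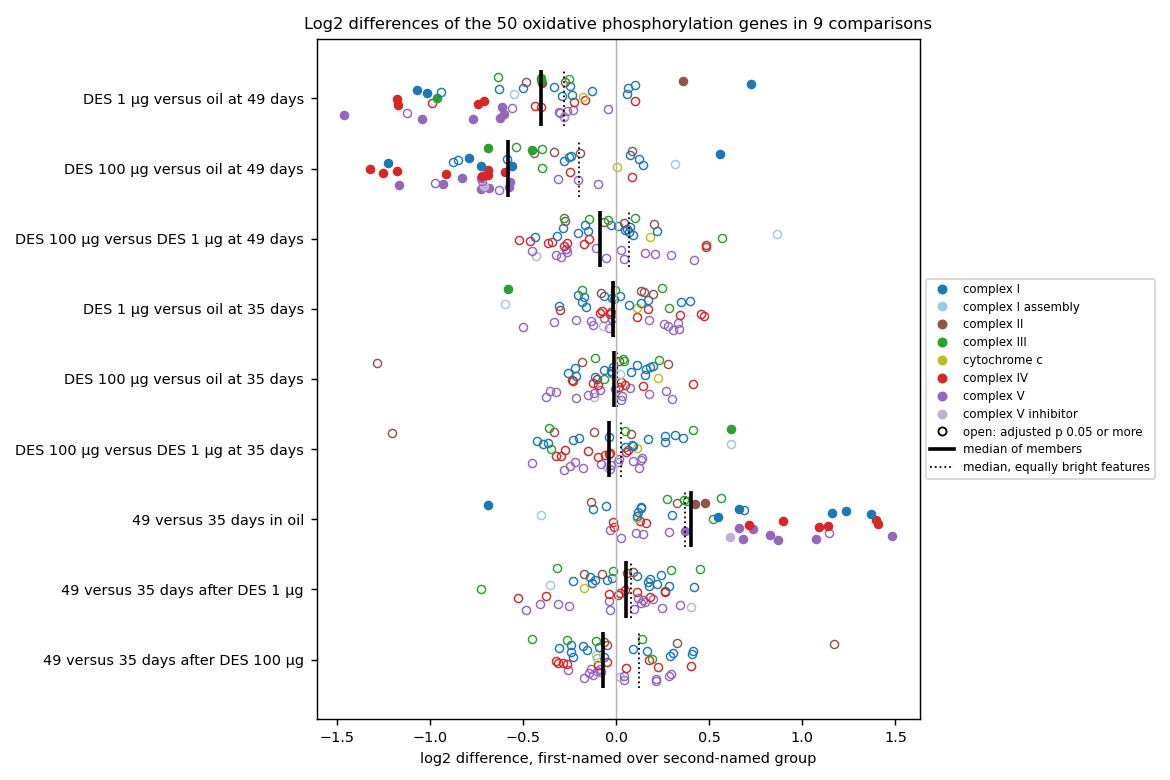
Log2 differences of the 50 members (horizontal axis, first-named over second-named group) in 9 comparisons (rows), coloured by complex, filled where the adjusted p is under 0.05. The thick line is the members' median and the dotted line that of 1395 equally bright features. The members' medians are -0.40 and -0.58 in the DES comparisons at 49 days and 0.40 with age in oil, and lie between -0.09 and 0.05 in the other 6.

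After DES, no member passed with age. At 49 against 35 days, none of 50 passed with DES 1 µg, where 3.32% of all features rose and 0.808% fell, and none with DES 100 µg, where 4.42% rose and 1.51% fell. At an unadjusted p under 0.05 there were 6 and 2 members. The medians were 0.05 and -0.07. With DES 1 µg the largest differences were those of Cyc1 (-0.73), Cox4i1 (-0.53) and Atp5f1a (-0.48), and with DES 100 µg those of Sdhb (1.17), Uqcrh (-0.45) and Ndufb9 (0.41). The Sdhb value came from a single array, on which this iron-sulphur subunit of complex II read 2.89, against 5.39 to 5.95 on the other 11 arrays.

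The change of the DES effect between the ages was tested as an interaction. For DES 1 µg, 10 members had a lower DES effect at 49 than at 35 days and 1 a higher one, against 11.3% and 9.43% of all features. Of the 1395 equally bright features 19.3% were lower and 3.37% higher, so the members' share of 20% lower was close to theirs. For DES 100 µg, 5 were lower and none higher, against 5.24% and 4.63% of all features and 5.59% and 1.43% of the equally bright ones. Atp5mc1 had the largest change with DES 1 µg, -1.74 ± 0.30 (adjusted p = 0.0109, limma), with a DES effect of -1.46 at 49 days and of 0.28 at 35 days. Cox5a followed with -1.51 ± 0.27 (adjusted p = 0.0114, limma). Cox5a and Atp5mc1 passed this test without each of the 8 arrays in turn. The calls for DES 100 µg were Atp5mc1, Atp5f1c, Cox5b, Atp5po and Uqcrh, and their number was 0 without oil array 1 at 35 days, without oil array 1 at 49 days or without DES array 1 at 35 days, 1 without oil array 2 or DES array 1 at 49 days, and 3 without DES array 2 at 35 days. For DES 1 µg the number was 3 or 4 without oil array 1 at 35 days, DES array 2 at 35 days, or any single array at 49 days, and 7 without oil array 2 at 35 days.

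A related pattern was seen between the 2 arrays of a single group. In each DES group the 2 arrays came from different animals and were scanned on different days. Animal and scan day cannot be told apart within such a group. In the DES 1 µg group at 35 days, array 2 read higher than array 1 for 26 of 50 members. Across the 50 members this difference correlated with the difference between 49 and 35 days in oil, with which it shares no array (Pearson's r = 0.75, across genes, which are not independent replicates). The corresponding r was 0.53 for DES 100 µg at 49 days, 0.48 for DES 1 µg at 49 days and 0.14 for DES 100 µg at 35 days. Among the 22 members that rose with age in oil, the median of array 2 minus array 1 was 0.24 with DES 1 µg at 35 days and 0.30 with DES 100 µg at 49 days. Among the other 28 it was -0.12 and 0.01. With DES 100 µg at 35 days the medians were 0.06 for the 22 and 0.03 for the other 28. With DES 1 µg at 49 days they were -0.02 and -0.06. The median signal of array 2 was below that of array 1 in DES 1 µg at 35 days (27.25 and 38.95), DES 100 µg at 49 days (25.3 and 37.2) and DES 100 µg at 35 days (33.6 and 38.55), and above it in DES 1 µg at 49 days (24.7 and 23.6). The r values were computed for the members only, so they do not show whether other features share the pattern. What this shared pattern rests on was not tested.

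**Figure D4:**
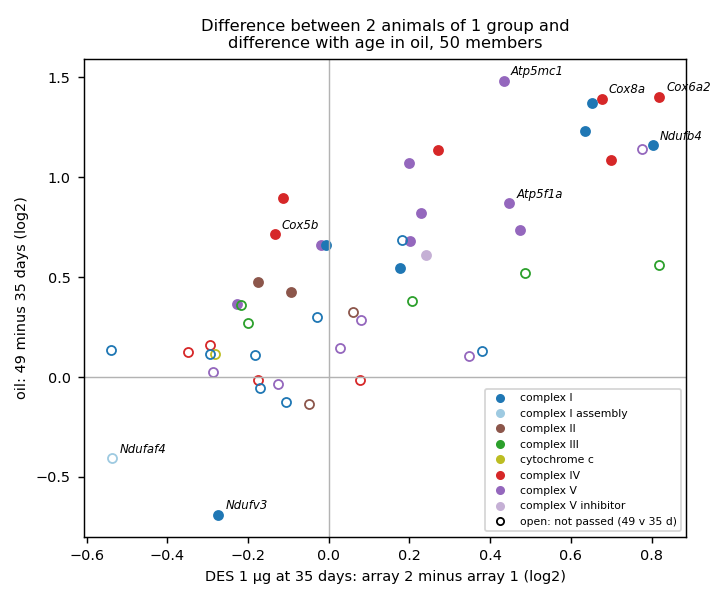
Each point is 1 of the 50 members, coloured by complex and filled where it passed with age in oil. The horizontal axis is array 2 minus array 1 within DES 1 µg at 35 days (log2), and the vertical axis is 49 minus 35 days in oil (log2). Cox6a2, Ndufb4, Cox8a and Atp5mc1 lie at the upper right and Ndufaf4 and Ndufv3 at the lower left (r = 0.75).

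At 35 days, few of these genes passed with DES. With DES 1 µg, 1 of 50 members fell and none rose, where 4.2% of all features fell and 3.18% rose. The members' median was -0.02, as over all features. With DES 100 µg none passed, where 0.875% of all features fell and 0.404% rose, and the median was -0.01. At an unadjusted p under 0.05 there were 4 and 3 members. The gene that passed was Uqcrh, which links cytochrome c1 to cytochrome c in complex III. It read 9.02 and 8.82 with DES 1 µg, against 9.51 and 9.49 in oil, a difference of -0.58 ± 0.13 (adjusted p = 0.0321, limma), and the groups did not overlap. The 2 arrays scanned on the same day differed by -0.49. The call was lost without oil array 1, without oil array 2 and without DES array 2, where the adjusted p reached 0.173 (limma). Ndufaf4 (-0.60 with DES 1 µg) and Atp5f1e (-0.50 with DES 1 µg and -0.38 with DES 100 µg) had large differences that did not pass. Sdhb with DES 100 µg (-1.29 ± 0.71) rested on the single low array named above, and Cox6a2 had a difference of 0.41 ± 0.35.

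Few members passed between the doses. At 35 days 1 member rose with DES 100 µg over DES 1 µg and none fell, against 4.14% of all features higher and 3.87% lower. That member was again Uqcrh, at 9.63 and 9.44 with DES 100 µg and 9.02 and 8.82 with DES 1 µg, a difference of 0.61 ± 0.13 (adjusted p = 0.0229, limma) and of 0.62 between the 2 arrays scanned on the same day. It was lost without array 2 of DES 1 µg and without either array of DES 100 µg. This and the comparison with oil share the DES 1 µg arrays. At 49 days none passed, against 3.61% of all features higher and 3.15% lower, with 11 members at an unadjusted p under 0.05 and a median of -0.09. The largest difference was that of Ndufaf4, at 0.14 and 0.22 with DES 100 µg and -0.54 and -0.83 with DES 1 µg (0.86 ± 0.21, adjusted p = 0.051, limma). Cyc1 (0.57) and Cox7b (-0.52) came next.

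The widest ranges over the 6 group means were those of Ndufb3 (1.63), Sdhb (1.61, from its low array), Cox8a (1.50), Atp5mc1 (1.48) and Cox6a2 (1.40). Of the 50 members, 18 passed in no comparison. They include core subunits of complex I (Ndufv1, Ndufv2, Ndufs3 and Ndufs8), Sdhb, Uqcrc2, Cox4i1, Cox6c and Cycs. Among the 45 members with a promoter window, 5 of the 9 with the NRF1 core and 17 of the 36 without it fell with DES 100 µg at 49 days, with medians of -0.56 and -0.61. With DES 1 µg these counts were 2 of 9 and 11 of 36.

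Other mitochondrial genes were counted in lists chosen with earlier results of these data known. Their counts stand against 19% of all features lower with DES 1 µg and 14.2% with DES 100 µg at 49 days, and 27.7% higher with age in oil. Among the 1395 features as bright as the members, these shares were 34.9%, 19.7% and 45.5%. No features were matched to the signal of these lists. Of 31 mitochondrial ribosomal proteins, 16 fell with DES 1 µg and 11 with DES 100 µg, none rose, and 18 rose with age in oil. Mrpl30 fell with DES 100 µg by 0.86 (SE 0.12, adjusted p = 0.00337, limma). Of 14 assembly factors outside the Nduf and Cox4 to Cox8 names, 8 fell with DES 1 µg and 3 with DES 100 µg, and 1 rose with each. Cox17, a copper chaperone for complex IV, fell by 0.79 with both. Of 11 genes of the citric acid cycle and pyruvate dehydrogenase, 6 fell and 1 rose with DES 1 µg, and 4 fell and 1 rose with DES 100 µg. Idh3g, a subunit of isocitrate dehydrogenase, fell by 0.61 and 0.84. Of 17 carriers and channels, 8 fell with DES 1 µg and 1 with DES 100 µg, and 1 rose with each.

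Lists of other energy genes were counted in the same way. Of 17 fatty acid oxidation genes, 3 fell and 1 rose with each dose. Of 14 glycolysis genes, 4 fell with DES 1 µg and 2 with DES 100 µg, with medians of -0.34 and -0.07. Of 12 regulators of mitochondrial biogenesis, 2 fell and 1 rose with DES 1 µg, and 1 fell and 1 rose with DES 100 µg, with medians of -0.05 and 0.12. The lists were not tested against each other or against the members.

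Cell type markers also differed between the groups. At 49 days the summed linear level of the 6 detected of 10 adipocyte markers was 383 to 400.1 in oil, 683 to 711 with DES 1 µg and 479 to 580.5 with DES 100 µg. For the 5 detected of 7 fibroblast markers it was 986 to 1158 in oil, 1584 to 2029 with DES 1 µg and 1141 to 1245 with DES 100 µg. For the 7 detected of 10 epithelial markers it was 1806 to 1956 in oil, 1327 to 1415 with DES 1 µg and 1498 to 1502 with DES 100 µg. Epcam and Krt19 made up most of that sum. By gene, 3 of the 7 were lower and 1 higher with DES 1 µg, against 19% and 12.7% of all features. With DES 100 µg 1 was lower and 1 higher, against 14.2% and 11%. Cdh1 read higher with DES 1 µg (2.48) and DES 100 µg (2.93) than in oil (1.74). For the 4 detected of 6 endothelial markers the summed level was 37.6 to 42.0 in oil, 59.8 to 65.5 with DES 1 µg and 40.4 to 52.0 with DES 100 µg. For the 4 detected of 7 immune markers it was 223 to 226 in oil, 166 to 175 with DES 1 µg and 145 to 197 with DES 100 µg. Most of that sum came from Lyz2. None of the 4 immune markers passed as lower with either dose, and 1 passed as higher with DES 100 µg. Their median log2 differences were 0.06 with DES 1 µg and -0.09 with DES 100 µg. Of the 4 brown fat markers only Cidea was detected, and Ucp1 was not detected in any group. At 35 days the adipocyte sum was 565 to 620 with DES 1 µg and 315 to 317 in oil, and the epithelial sum 1228 to 1262 and 1839 to 1980, while the members' median difference was -0.02. The part of cell mixture in the differences at 49 days was not tested.

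In the authors' deposited tables, which list probes with a DES to oil ratio of 2-fold or more in either direction, members appear mainly at 49 days, all of them lower with DES. The table for DES 1 µg at 49 days lists 970 of the 20500 non-control probes and 6 of the 50 members. These are Atp5mc1 at 0.363 of oil, Cox8a at 0.442, Cox5a at 0.444, Atp5me at 0.459, Ndufb9 at 0.477 and Ndufb3 at 0.494. The authors' deposited table for DES 100 µg at 49 days lists 1023 of the 20500 probes and 4 of the 50 members. These are Cox8a at 0.4, Cox6a2 at 0.421, Ndufb3 at 0.428 and Atp5mc1 at 0.446. The directions of the other listed probes were not counted. At 35 days the authors' deposited table for DES 1 µg lists none among 406 probes, and that for DES 100 µg lists Sdhb at 0.409 among 121. In the present fit, Atp5me at 49 days did not pass (adjusted p = 0.0931 with DES 1 µg, limma).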

How the data were processed

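Arrays of 12 rats were analysed. Intensity was measured with Agilent Feature Extraction 9.1.3.1, per the submitters' processing notes; the deposited value table equals the deposited scanner signal within 0.497% on the 10 arrays with scanner files. The authors deposited, per the file headers, a signal intensity and a flag of another kind (present, marginal or absent) per probe, and a DES over oil ratio for probes that differ at least 2-fold.

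Of 20500 non-control probes, 13266 had a present or marginal flag on both arrays of a group. Of the 20500, 9696 were named through RefSeq tables (6587 by accession, 2421 by symbol, 688 by older symbol), and the brightest probe stood for a gene. Signals were divided by the array median, floored at 0.01 and put on the log2 scale. All 12 arrays were fitted together with group means in limma 3.58.1 (R 4.3.3), with Benjamini-Hochberg adjustment over 11882 features and a threshold of 0.05. The code was tested on simulated data. With 2 animals a group, p-values rest on the spread between these animals. For the normexp alternative (offset 50) the scanner median signal was used.

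The members and lists were chosen with earlier results of these data known. Named members are, per comparison, the 4 largest rises and falls that passed, or the 3 largest differences where fewer than 2 passed; 1 or 2 core subunits per complex; isoform sets; the 3 highest and 3 lowest signals; and the 5 widest ranges. Of each other list, up to 3 called genes with the smallest p were eligible where its share of calls exceeded that of all features. Ndufv2, Cox6c and other members outside that rule were added after their values were seen. Alternatives covered scaling, filters, probe choice, the floor, the variance trend, blocks, the arrays fitted and each array left out. The labels pair no samples by replicate number, and deviations of same-numbered arrays correlated between -0.12 and 0.43.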

Additional observations from a re-analysis of the deposited data

Results flagged for a closer look

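The DES effect differed between the ages by an interaction test in limma for 11 members with DES 1 µg and 5 members with DES 100 µg, as described above. With DES 1 µg, the change of the log2 effect at 49 over 35 days was 0.93 for Ndufv3, -1.74 for Atp5mc1, -1.51 for Cox5a, -1.46 for Ndufb9 and -1.35 for Atp5f1a. The Ndufb9 probe used had a DES effect of -1.07 at 49 days and 0.39 at 35 days. Its other probe gave -0.47 and 0.02. Without each of 8 arrays in turn, Atp5mc1 and Cox5a passed in 8 fits, Atp5f1a in 4, and Ndufv3 and Ndufb9 in 2. With DES 100 µg, the change was -1.20 for Atp5mc1, -1.03 for Atp5f1c, -0.82 for Cox5b and -0.80 for Atp5po. Atp5f1c passed in 5 of 8 such fits, Cox5b and Atp5po in 2 and Atp5mc1 in 1. All of these rest on the oil arrays at 49 days, whose signal stands apart. Outliers within a group could not be sought with 2 arrays a group.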

How the results depend on the processing

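Counts are of members called. Centring on equally bright features, added after the data were seen, gave 11 for DES 1 µg over oil at 49 days (17 as reported), 14 for DES 100 µg over oil at 49 days (24), 2 for DES 100 µg over DES 1 µg at 49 days (0), 15 for age in oil (23), 1 for age after DES 100 µg (0), and 6 and 2 for the changes of the DES 1 µg and DES 100 µg effects (11 and 5). Quantile normalization gave 15 for DES 100 µg over oil at 49 days, 2 for the doses at 49 days, 14 for age in oil, 1 for age after DES 100 µg and 2 for the change with DES 100 µg. Scaling by the 75th percentile, and by the median of probes detected on all arrays, each gave 1 for the doses at 49 days and 1 for age after DES 100 µg. The second of these gave 15 rises and 3 falls with age in oil. For the DES 1 µg effect's change with age, quantile normalization gave 2 rises and 6 falls, and centring on bright features 2 and 4. A floor of 0.1 gave 1 for the doses at 49 days.

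Fitting only the groups compared gave 0 for DES 1 µg over oil and for the doses at 35 days, 8 for DES 100 µg over oil at 49 days and 2 for the change with DES 100 µg. Normexp on scanner medians gave 0 for both of those 35-day comparisons, 3 for the doses at 49 days and 1 for age after DES 1 µg. It could not be run for comparisons with oil at 49 days. Leaving out both oil arrays at 49 days gave 0 for DES 1 µg over oil at 35 days. No filter on dim probes gave 7 and 3 for the changes with DES 1 µg and DES 100 µg. For DES 100 µg, probes detected on all arrays gave 8 and a variance trend 10. With the scan day as a block, 10 arrays and 1 residual degree of freedom, both 35-day counts of 1 were 0. The cause of these moves was not tested.

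With each array left out, counts ranged from 0 to 2 for DES 1 µg over oil and for the doses at 35 days, 0 to 1 for DES 100 µg over oil at 35 days, 5 to 7 and 6 to 21 for DES 1 µg and DES 100 µg over oil at 49 days, and 0 to 0 for the doses at 49 days. They ranged from 9 to 20 for age in oil, 0 to 0 and 0 to 1 for age after DES 1 µg and DES 100 µg, and 3 to 13 and 0 to 5 for the changes of the DES effects. A lone array was assumed to vary like the other groups. The replicate block gave 23, 30 and 27 for DES 1 µg over oil at 49 days, DES 100 µg over oil at 49 days and age in oil, 16 and 5 for the changes, and 1 each for the doses at 49 days and for age after DES 1 µg and DES 100 µg. The numbers are not known to pair animals.

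The members' median kept its sign in all alternatives run for DES over oil at 49 days (-0.44 to -0.13 with DES 1 µg, -0.67 to -0.36 with DES 100 µg) and for age in oil (0.06 to 0.45).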
